A study of Mus musculus with 32 samples.

Results

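The genes described here are 10 mouse orthologs of Alzheimer's disease risk genes other than Apoe and Trem2, namely Bin1, Picalm, Sorl1, Pld3, Cass4, Ptk2b, Epha1, Cd2ap, Abi3 and Fermt2. They were picked by name, with earlier results of these data known. All 10 were found by Entrez number among the 18588 genes with a log2 signal in microglia RNA. rTg4510 mice carry a human tau (P301L) transgene behind a tetracycline-responsive element together with a CaMKIIα-driven transactivator. The study describes expression of the mutant tau in forebrain neurons. CD11b-positive cells were captured with magnetic beads from pooled forebrains of 8 to 10 animals per library. Libraries were compared between genotypes at 2, 4, 6 and 8 months of age, and 28 of the 32 libraries entered the comparisons. All mice were female, and no treatment is given in the labels.

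The 8 groups were defined by genotype and age. The transgenic mice (strain label rTg4510) held both transgenes, and the Wild-type mice (WT, strain label 129/FVB F1) were littermates with neither transgene. At 2 and 6 months 4 libraries per genotype were used (replicates 1 to 4). At 4 months 3 per genotype remained (replicates 1, 2 and 4), as at 8 months (replicates 1, 2 and 3). The other 4 libraries had failed the study's sequencing quality check. The pooled animals, the single sex and a transgene driven in neurons limit what these groups can model. The study describes the libraries of a genotype and age as biological replicates.

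Risk loci of late-onset Alzheimer's disease encode proteins of several kinds, and many act where membrane is taken up, sorted or broken down. Clathrin adaptors and membrane-bending proteins pull receptors into the cell, sorting receptors of the VPS10 family carry cargo between the Golgi apparatus and endosomes, and lysosomal nucleases and hydrolases degrade what arrives. Others act at the cell edge, where integrins, scaffold proteins and kinases pass signals to the actin skeleton that microglia use to move and engulf material.

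The deposited files give signals and no read totals, and the study's methods give an approximate depth common to all samples but no total per library. All 8 microglia markers listed, among them Cx3cr1, P2ry12, Tmem119, Csf1r and Sall1, were present in every library. Their summed level lay between 14.39 and 15.17 on the log2 scale over the 28 libraries, and the most abundant, Cx3cr1, had a log2 signal of 13.02 to 14.05. Of 7 neuron markers 3 were in the table, and the summed level of these was 4.89 to 6.94. A value was taken as near the lowest when it lay within 3 counts of the lowest in its library, a step inferred from the values. The neuron marker Syt1 was near the lowest in 14 of 28 libraries, as was the astrocyte marker Aldh1l1 in 14 and the neutrophil marker Ly6g in 16. The summed microglia level was 15.09 ± 0.122 (SD, n = 4) in WT and 14.86 ± 0.0741 (n = 4) in rTg4510 at 2 months. It was 15.04 ± 0.0753 (n = 4) and 14.70 ± 0.086 (n = 4) at 6 months, and of the 8 markers 0, 2, 3 and 2 were called lower and 0 higher at 2, 4, 6 and 8 months. Where RNA comes from whole preparations, fewer cells of a type and less RNA per cell cannot be told apart.

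A gene was called when limma's linear model over the 8 groups gave a Benjamini-Hochberg FDR under 0.05 over all 18588 genes and the change exceeded 1.5 fold. At 2 months 0 of the 10 genes were called in either direction, where 1.58% of all genes were called higher and 0.403% lower in rTg4510. The unadjusted limma p was under 0.05 for 4 of the 10 (3069 of all 18588 genes). With moderated variances 0 of the 10 were called as well. At 4 months Pld3 and Ptk2b were called higher (2 of 10, against 9.47% of all genes) and Cass4 and Epha1 lower (2 of 10, against 4.33%). At 6 months Sorl1 and Pld3 were called higher (2 of 10, against 11.3%) and Cass4 lower (1 of 10, against 8.54%). At 8 months Sorl1 and Pld3 were again called higher (2 of 10, against 10.5%) and Cass4 lower (1 of 10, against 5.37%).

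By FDR under 0.05 alone, which was added as a reading after the data had been seen, 2 of the 10 were higher at 2 months (4.76% of all genes) and 0 lower (1.27%). At 4 months 3 were higher (14.1%) and 6 lower (9.1%). At 6 months 3 were higher (19.1%) and 4 lower (14.9%), and at 8 months 3 were higher (16.0%) and 4 lower (9.78%). At 6 and 8 months the higher genes were Sorl1, Pld3 and Ptk2b and the lower ones Bin1, Cass4, Cd2ap and Abi3, of which Cd2ap and Abi3 had an FDR of 0.148 or more at both ages when all 32 libraries were used. At 2 months both higher genes, and at 4 months Bin1, Picalm, Sorl1, Epha1, Cd2ap and Abi3, had an FDR of 0.05 or more under at least 1 alternative, with the values given for each gene below. The median log2 change of the 10 genes was -0.0659, -0.298, -0.264 and -0.195 at 2, 4, 6 and 8 months, beside 0.0143, -0.037, -0.035 and -0.014 over all genes. The median size of the log2 change, whatever its sign, was 0.129, 0.481, 0.459 and 0.44 for the 10 genes and 0.157, 0.287, 0.318 and 0.305 for all genes. The study had already reported Pld3, Ptk2b and Sorl1 as up-regulated and Cass4 and Epha1 as down-regulated in these data. Because the 10 were chosen with such results known, their shares and medians beside those of all genes describe the choice and test nothing.

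**Figure D1:**
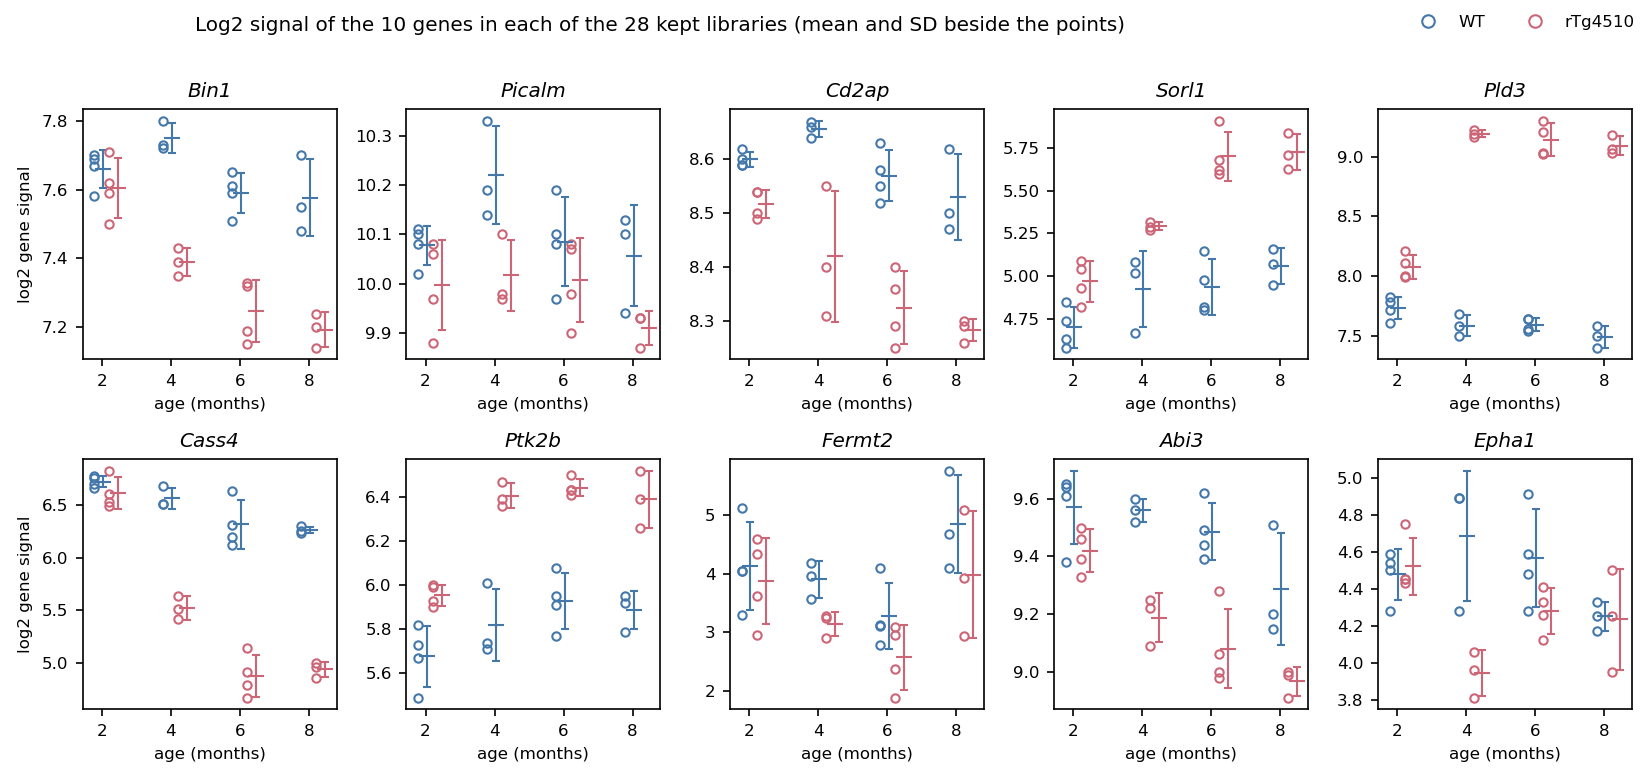
Log2 gene signal (vertical axes, which differ between panels and do not start at 0) against age in months for the 10 genes, with open circles for single libraries of WT (blue) and rTg4510 (red) and the mean and SD beside them. The rTg4510 libraries of 4 to 8 months lie between 9.02 and 9.30 for Pld3, above all WT libraries, and between 4.67 and 5.64 for Cass4, below all WT libraries.

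Pld3 encodes a transmembrane member of the phospholipase D family that acts as a nuclease in lysosomes. Its log2 signal in WT was 7.61, 7.72, 7.78 and 7.83 at 2 months, 7.68, 7.50 and 7.58 at 4 months, 7.54, 7.56, 7.64 and 7.64 at 6 months and 7.40, 7.50 and 7.58 at 8 months. In rTg4510 it was 8.11, 7.99, 8.21 and 8.00 at 2 months, 9.22, 9.19 and 9.16 at 4 months, 9.03, 9.02, 9.30 and 9.21 at 6 months and 9.03, 9.18 and 9.06 at 8 months. Every rTg4510 library lay above every WT library of its age from 2 months on, and the libraries of 4, 6 and 8 months lay above those of 2 months. The log2 change was 0.34 ± 0.0661 (SE, FDR = 0.00217) at 2 months, a 1.27-fold difference below the fold threshold, and its FDR ran from 0.00118 to 0.727 over the alternatives, with 0.727 for all 32 libraries and 0.0733 for only the 2 groups of that age. It was 1.61 ± 0.0763 (3.04-fold, FDR = 3.64e-12) at 4 months, 1.55 ± 0.0661 (2.92-fold, FDR = 4.14e-13) at 6 months and 1.60 ± 0.0763 (3.03-fold, FDR = 4.02e-12) at 8 months, with a 95% interval of 1.44 to 1.76 at 8 months.

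The genotype difference of Pld3 was larger at 4 than at 2 months by 1.26 ± 0.101 log2 units (SE, limma FDR = 8.51e-08). Its group means ran in the order rTg4510 at 4, 6 and 8 months (9.19, 9.14 and 9.09), rTg4510 at 2 months (8.08), and WT at 2, 6, 4 and 8 months (7.74, 7.60, 7.59 and 7.49). Values overlapped between neighbours among the 3 highest groups and among the 4 WT groups. Within rTg4510 Pld3 rose from 2 to 8 months by 1.01 ± 0.0714 log2 units (2.02-fold, FDR = 2.05e-09), while in WT the log2 change was -0.24 ± 0.0714 with an FDR of 0.0583. Of the variance of Pld3 over the 28 libraries 98.8% lay between the 8 groups, where the median gene had 48.0%.

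Among the genes whose signals ran most like that of Pld3 over the 28 libraries were Ank (Pearson r = 0.989), a transporter linked to pyrophosphate export, and Ctsa (r = 0.988), a lysosomal carboxypeptidase. They were among the closest of 8909 named genes with a mean log2 signal above the median of 5.58. For deviations from the group means, which leave the genotype and age differences out, r was 0.696 and 0.859. The log2 change of Ank was 0.89, 2.71, 2.34 and 2.29 at 2, 4, 6 and 8 months, and that of Ctsa 0.18, 0.84, 0.94 and 0.83.

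The rest of the phospholipase D family did not share one direction. Of 5 other members 0 were called by limma at 2 months, 1 lower at 4 months, 1 higher and 2 lower at 6 months, and 1 higher and 1 lower at 8 months. Pld1, which makes phosphatidic acid at membranes, fell by 0.66, 0.90 and 0.83 log2 units at 4, 6 and 8 months (FDR of 1.49e-05, 1.69e-08 and 6.2e-07). Pld4, a second lysosomal nuclease and the closest relative of Pld3 in the list, had log2 changes of 0.01, -0.03, 0.07 and -0.01 and an FDR of 0.419 or more at every age, and its sign at 2 and 6 months changed with the scaling. Pld5 was called higher at 6 and 8 months (log2 changes of 1.66 and 2.46), with overlapping genotypes at 8 months. Pld6, a mitochondrial member, fell by 1.63 at 6 months, with a signal of 1.36 to 3.05 in rTg4510. The lowest value of a kept library was 1.23 to 1.92, so part of these Pld6 values lay close to it. At 2, 4 and 8 months the log2 change of Pld6 was -0.29, -0.35 and -0.32, with a limma FDR of 0.709 or more. The list's median log2 change was -0.107, -0.0267, 0.0737 and -0.00967 at 2, 4, 6 and 8 months. Over all genes 1.98%, 13.8%, 19.8% and 15.9% were called in either direction at these ages.

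Sorl1 encodes a sorting receptor with a VPS10 domain that binds the amyloid precursor protein and the retromer. Its log2 signal in WT was 4.58, 4.85, 4.74 and 4.63 at 2 months, 5.08, 4.67 and 5.02 at 4 months, 5.15, 4.82, 4.98 and 4.80 at 6 months and 5.16, 4.95 and 5.07 at 8 months. In rTg4510 it was 5.09, 4.93, 4.82 and 5.04 at 2 months, 5.32, 5.27 and 5.29 at 4 months, 5.91, 5.60, 5.68 and 5.62 at 6 months and 5.71, 5.63 and 5.84 at 8 months. The genotypes overlapped at 2 months, where 3 of 4 rTg4510 libraries exceeded all WT libraries, and did not overlap at later ages. Its log2 change was 0.27 ± 0.0956 (SE, FDR = 0.116) at 2 months and 0.37 ± 0.11 (FDR = 0.0177) at 4 months, below 1.5 fold. At 4 months the FDR was 0.167 with only the 2 groups of that age, 0.051 without rTg4510 replicate 1 and 0.132 without WT replicate 2 of 4 months, and 0.00318 to 0.167 over all alternatives. It reached 0.76 ± 0.0956 (1.70-fold, FDR = 1.67e-06) at 6 months and 0.67 ± 0.11 (1.59-fold, FDR = 7.94e-05) at 8 months, both called. From 4 to 6 months the genotype difference grew by 0.39 ± 0.146 with an FDR of 0.423, so this step was not called.

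The order of the Sorl1 group means was rTg4510 at 8 and 6 months (5.73 and 5.70), rTg4510 at 4 months (5.29), WT at 8 months (5.06), rTg4510 at 2 months (4.97), and WT at 6, 4 and 2 months (4.94, 4.92 and 4.70). The 2 highest groups overlapped, the third stood clear of its neighbours, and from WT at 8 months downward each group overlapped the next. Sorl1 was higher at 8 than at 2 months in rTg4510 (log2 change 0.76 ± 0.103, FDR = 1.51e-05). In WT the change over these ages was 0.36 ± 0.103 (FDR = 0.0532), with no overlap between the libraries of the 2 ages. BC005537 (r = 0.934), Chka (r = 0.931), a choline kinase, and Ctsh (r = 0.93), a lysosomal protease, were the genes most like Sorl1 over the 28 libraries.

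Among 21 genes of the VPS10 receptors, the retromer and related endocytic receptors, 0, 2 and 4 were called higher and 0 lower by limma at 2, 4 and 6 months. That is 0.0%, 9.52% and 19.0% of the list, against 1.98%, 13.8% and 19.8% of all genes. Their median log2 change was 0.0574, 0.0523 and 0.01 beside 0.0143, -0.037 and -0.035 over all genes. Lrpap1, a chaperone of endocytic receptors, rose by 0.96, 0.82 and 0.75 log2 units at 4, 6 and 8 months (FDR of 6.82e-07, 4.92e-07 and 1.59e-05), and Gga2, a clathrin adaptor at the Golgi apparatus, by 0.66, 0.80 and 0.86. Vps29, a retromer subunit, rose at 6 months by 0.61 (1.53-fold). The remaining gene called at 6 months, named after its values were seen, was the sorting nexin Snx3 (log2 change 0.60). Sort1, the VPS10 receptor sortilin, had log2 changes of -0.24, -0.41 and -0.37 at 4, 6 and 8 months (FDR of 0.0323, 6.23e-05 and 0.00109), under 1.5 fold and opposite in sign to Sorl1.

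Promoter windows of RefSeq on GRCm38.p6 were found for 7 of the 10 genes, giving 8 windows (without Bin1, Ptk2b and Abi3), of which the 250 bases upstream of the start were searched on both strands for 3 short words. The PU box was searched as GAGGAA, the core of sites for the myeloid factor PU.1. The E-box of lysosomal gene promoters was searched as CACGTG, and the site of the AP-1 factors as TGANTCA. Of all 32851 windows 23.3% held the PU box, 6.02% the E-box and 6.75% the AP-1 site. The E-box stood once in the Sorl1 window and once in that of Picalm, and the PU box stood at 2 places in the window of Picalm. The windows of Pld3, Cass4, Epha1, Cd2ap and Fermt2 and a second Sorl1 window within the gene held none of the 3. Those of Cd2ap and Fermt2 overlap annotated exons of the same gene. The windows of Picalm and Pld3 overlap exons of 2310010J17Rik and 2310022A10Rik. The upstream window of Sorl1, which was called higher at 6 and 8 months, lies on the minus strand at chr9:42124298-42124547, outside annotated exons, and is shown 5′ to 3′ with the E-box in capitals, 19 to 14 bases before the start. A match is a description of the letters and not evidence of binding.
Sorl1: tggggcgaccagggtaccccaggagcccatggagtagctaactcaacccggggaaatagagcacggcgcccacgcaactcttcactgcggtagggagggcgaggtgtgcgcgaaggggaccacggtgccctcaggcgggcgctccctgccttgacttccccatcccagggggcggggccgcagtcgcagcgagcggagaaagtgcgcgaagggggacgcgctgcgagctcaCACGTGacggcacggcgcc

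Cass4 encodes a scaffold of the Cas family that sits at focal adhesions. Its log2 signal in WT was 6.70, 6.66, 6.78 and 6.76 at 2 months, 6.51, 6.51 and 6.68 at 4 months, 6.12, 6.20, 6.31 and 6.64 at 6 months and 6.26, 6.30 and 6.24 at 8 months. In rTg4510 it was 6.83, 6.61, 6.49 and 6.53 at 2 months, 5.64, 5.42 and 5.51 at 4 months, 4.67, 4.79, 4.91 and 5.14 at 6 months and 5.0, 4.96 and 4.86 at 8 months. The genotypes overlapped at 2 months, where replicate 1 of rTg4510 had the highest Cass4 signal of all 28 libraries, and at each later age every rTg4510 library lay below every WT library. Between genotypes the log2 change was -0.11 ± 0.101 (SE, FDR = 0.68) at 2 months, -1.04 ± 0.116 (2.06-fold lower, FDR = 6.33e-07) at 4 months, -1.44 ± 0.101 (2.71-fold lower, FDR = 4.2e-10) at 6 months and -1.32 ± 0.116 (2.50-fold lower, FDR = 2.1e-08) at 8 months.

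The genotype difference of Cass4 fell by 0.93 ± 0.154 log2 units from 2 to 4 months (limma FDR = 0.000643), and its further step from 4 to 6 months was -0.39 ± 0.154 (FDR = 0.472). Group means ran from WT at 2 months (6.73) through rTg4510 at 2 months (6.62) and WT at 4, 6 and 8 months (6.57, 6.32 and 6.26) to rTg4510 at 4, 8 and 6 months (5.52, 4.94 and 4.88). Neighbours overlapped among the 5 highest groups and between the 2 lowest, and rTg4510 at 4 months stood clear on both sides. Within rTg4510 Cass4 was 3.20-fold lower at 8 than at 2 months (log2 change -1.68 ± 0.109, FDR = 6.53e-10). In WT it was lower by less than 1.5 fold over these ages (log2 change -0.46 ± 0.109, FDR = 0.0198). That FDR ran from 0.00884 to 0.596 over the alternatives and was 0.596 with all 32 libraries, 0.0771 with only the groups compared, 0.0614 with centring on the 5000 highest genes, 0.0555 without WT replicate 3 of 2 months, and 0.0741 and 0.0543 without WT replicate 1 or 2 of 8 months. Prkab1 (r = 0.963), a subunit of the AMP-activated kinase, Asb2 (r = 0.962), a ubiquitin ligase subunit, and Sox4 (r = 0.959), a transcription factor, ran most like Cass4, while their deviations from the group means gave r of 0.347, 0.124 and 0.0118.

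Ptk2b encodes PYK2, a calcium-responsive kinase related to focal adhesion kinase. Its log2 signal in WT was 5.67, 5.49, 5.73 and 5.82 at 2 months, 5.74, 5.71 and 6.01 at 4 months, 5.77, 5.95, 5.91 and 6.08 at 6 months and 5.79, 5.92 and 5.95 at 8 months. In rTg4510 it was 5.99, 5.93, 5.90 and 6.00 at 2 months, 6.39, 6.36 and 6.47 at 4 months, 6.41, 6.43, 6.50 and 6.43 at 6 months and 6.39, 6.52 and 6.26 at 8 months. All rTg4510 libraries lay above all WT libraries of the same age at each of the 4 ages. Ptk2b had a log2 change of 0.28 ± 0.0751 (SE, FDR = 0.029) at 2 months, 0.59 ± 0.0867 (FDR = 2.49e-05) at 4 months, 0.51 ± 0.0751 (FDR = 1.4e-05) at 6 months and 0.50 ± 0.0867 (FDR = 0.000127) at 8 months. The FDR at 2 months ran from 0.0146 to 0.353 over the alternatives, and was 0.353 with all 32 libraries, 0.142 with only the groups compared and 0.0547 with centring on the 5000 highest genes. Without rTg4510 replicate 1, 2 or 4 of 2 months it was 0.0814, 0.0502 and 0.0786, and without WT replicate 1 or 2 of that age 0.0589 and 0.129. At 4 months the change was just over 1.5 fold, and the call there was lost without rTg4510 replicate 4 (1.47-fold), WT replicate 1 (1.46-fold) or WT replicate 2 (1.45-fold) of that age. Under quantile normalization it was 1.49-fold and with libraries centred on the 5000 highest genes 1.45-fold, with an FDR under 0.05 in each of these.

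Group means of Ptk2b ran from rTg4510 at 6, 4 and 8 months (6.44, 6.41 and 6.39) to rTg4510 at 2 months (5.95) and WT at 6, 8, 4 and 2 months (5.93, 5.89, 5.82 and 5.68). The 3 highest groups overlapped and stood apart from the rest, among which every neighbour overlapped. Slc11a1 (r = 0.953), a metal transporter of phagosomes, and Ctsb (r = 0.944), a lysosomal protease, ran most like Ptk2b, followed by Gm5182 (r = 0.942). Slc11a1 had log2 changes of 0.58, 1.26, 1.07 and 1.03 at the 4 ages. Pld3 and Ptk2b correlated with r = 0.904 over the 28 libraries and with r = 0.351 for deviations from the group means.

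Fermt2 encodes kindlin-2, which binds and activates integrins. Its log2 signal lay between 1.89 and 5.75, and 10 of the 28 libraries were within 3 counts of their lowest value. The group means ran from WT at 8 months (4.84 ± 0.838, n = 3) and WT at 2 months (4.13 ± 0.75, n = 4) through rTg4510 at 8 months (3.98 ± 1.07, n = 3), WT at 4 months (3.90 ± 0.309, n = 3), rTg4510 at 2 months (3.87 ± 0.734, n = 4), WT at 6 months (3.28 ± 0.563, n = 4) and rTg4510 at 4 months (3.15 ± 0.205, n = 3) to rTg4510 at 6 months (2.58 ± 0.554, n = 4). Every group overlapped its neighbours in this order. The log2 change was -0.26, -0.75, -0.70 and -0.86 at 2, 4, 6 and 8 months with an FDR of 0.878, 0.37, 0.281 and 0.287, and its 95% interval at 8 months ran from -2.01 to 0.30. At 4 months the rTg4510 libraries lay below all WT libraries, and at the other ages the genotypes overlapped. The residual SD was 0.677, against a median of 0.232 over all genes.

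Fermt2 varied together with markers of oligodendrocytes. Over the 28 libraries its deviations from the group means followed those of the summed level of 6 oligodendrocyte markers with Pearson r = 0.769 and Spearman rho = 0.674, and with r = 0.699 without replicate 1 of WT and of rTg4510 at 8 months, which stood farthest out. This was the highest of 10 cell types for Fermt2, among 100 relations of a gene with a cell type. The Fermt2 deviations followed neurons with r = 0.653 and astrocytes with r = 0.556, and ran against microglia with r = -0.566. The summed oligodendrocyte level was 7.94 ± 0.542, 7.87 ± 0.448, 8.06 ± 0.143 and 9.06 ± 1.32 in WT and 7.86 ± 0.46, 7.59 ± 0.39, 7.57 ± 0.227 and 8.52 ± 0.892 in rTg4510 at 2, 4, 6 and 8 months (SD, n = 4, 3, 4 and 3). In WT replicate 1 of 8 months it was 10.52, the highest of all libraries, and Fermt2 was 5.75, also the highest. The most abundant of these markers, Cnp, had a log2 signal of 6.26 to 7.60, 0 of the 6 were called at any age, and Mog and Sox10 lay within 3 counts of the lowest value in 9 and 8 libraries. The study's isolation included a step with Percoll to remove myelin before the magnetic beads. The part of oligodendrocyte RNA in the Fermt2 values was not tested. The genes most like Fermt2 were Ptn (r = 0.875), a secreted growth factor, Cdr1 (r = 0.864) and Tmod2 (r = 0.856), a neuronal actin-capping protein.

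**Figure D2:**
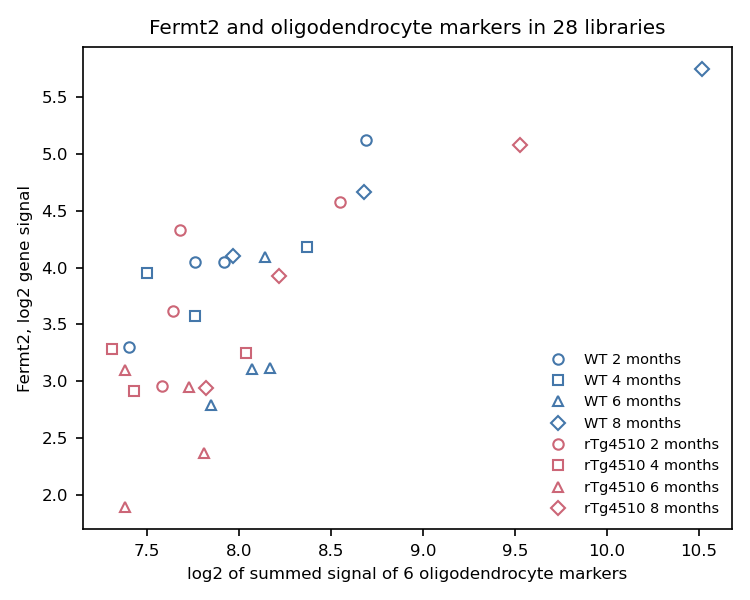
Log2 gene signal of Fermt2 (vertical axis) against the log2 of the summed signal of 6 oligodendrocyte markers (horizontal axis) in the 28 libraries, with colour for genotype and symbol for age. WT replicate 1 of 8 months lies at the upper right, at 10.52 and 5.75, and libraries of both genotypes spread along the same direction.

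Of 27 other genes of focal adhesions and the Cas family, 1, 2, 2 and 2 were called higher and 0 lower at 2, 4, 6 and 8 months. These were 3.7%, 7.41%, 7.41% and 7.41% of the list, against 1.98%, 13.8%, 19.8% and 15.9% of all genes. Bcar3, an exchange factor that binds Cas proteins, rose by 2.06, 2.59 and 2.60 log2 units at 4, 6 and 8 months (4.16-fold, 6.03-fold and 6.08-fold, FDR of 9.94e-08, 2.01e-10 and 3.55e-09). Parvb, an adaptor between integrin-linked kinase and actin, rose at all 4 ages by 0.80, 1.10, 1.18 and 1.01. The close relatives of the 3 risk genes were not called, since Nedd9, Bcar1, Ptk2 and Fermt3 had an FDR of 0.304, 0.272, 0.355 and 0.945 at 6 months. The list's median log2 change was 0.0576, 0.0677, 0.0447 and -0.03, beside 0.0143, -0.037, -0.035 and -0.014 over all genes. Fermt1 was not analysed here.

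Bin1 encodes amphiphysin 2, which bends membrane during endocytosis. Its log2 signal lay between 7.48 and 7.80 in WT and between 7.14 and 7.71 in rTg4510. WT at 4 months was highest (7.75 ± 0.0431, n = 3), followed by WT at 2 months (7.66 ± 0.0564, n = 4), rTg4510 at 2 months (7.61 ± 0.0875, n = 4), WT at 6 and 8 months (7.59 ± 0.0588, n = 4, and 7.57 ± 0.112, n = 3) and rTg4510 at 4, 6 and 8 months (7.39 ± 0.0383, n = 3, 7.25 ± 0.0924, n = 4, and 7.20 ± 0.0505, n = 3). From the second to the fifth group neighbours overlapped, as did the last 2. The genotypes did not overlap at 4, 6 and 8 months, with log2 changes of -0.36 ± 0.0593, -0.34 ± 0.0514 and -0.38 ± 0.0593 (SE, FDR of 9.04e-05, 2.09e-05 and 4.39e-05), all under 1.5 fold, after -0.05 ± 0.0514 (FDR = 0.726) at 2 months. With all 32 libraries the change at 4 months was -0.16 (FDR = 0.221, with 8.51e-06 to 0.221 over the alternatives). The genotype difference moved by -0.31 ± 0.0785 from 2 to 4 months (FDR = 0.0179), under 1.5 fold. Over the alternatives this FDR ran from 0.0066 to 0.733, with 0.733 for all 32 libraries, 0.051 for moderated variances, 0.0502 for the replicate block and 0.0521 without rTg4510 replicate 4 of 4 months. Casp8 (r = 0.949), a protease of cell death pathways, Tjp1 (r = 0.947), a tight junction scaffold, and Plcl2 (r = 0.937) ran most like Bin1.

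Cd2ap, an adaptor that links membrane receptors to actin, varied little between libraries, with a log2 signal of 8.25 to 8.67 and a residual SD of 0.0563. Only 0.134% of genes had a smaller residual SD. Its means were 8.60 ± 0.0147 (n = 4), 8.65 ± 0.0154 (n = 3), 8.57 ± 0.0444 (n = 4) and 8.53 ± 0.0797 (n = 3) in WT and 8.52 ± 0.0235, 8.42 ± 0.119, 8.33 ± 0.0657 and 8.28 ± 0.0182 in rTg4510 at 2, 4, 6 and 8 months with the same numbers of libraries. In this order by level, WT at 4 months stood above WT at 2 months without overlap, and all later neighbours overlapped. Within an age the genotypes did not overlap at any of the 4 ages. The log2 changes were -0.08, -0.24, -0.24 and -0.25 with an FDR of 0.288, 0.000566, 4.95e-05 and 0.000316, and the fold was at most 1.19. With all 32 libraries the log2 changes at 4, 6 and 8 months were -0.11, -0.24 and -0.21 with an FDR of 0.642, 0.303 and 0.412, and with only the 2 groups of 4 months the FDR there was 0.124. The lowest FDR over the alternatives was 1.63e-06, 6.41e-08 and 7.01e-07 at these ages. Lpcat2 (r = 0.951), an enzyme of phospholipid remodelling, and Rock2 (r = 0.941), a kinase acting on the actin skeleton, were among the genes most alike. Sh3kbp1, the close relative of Cd2ap, changed in the opposite direction, with log2 changes of 0.18, 0.32, 0.39 and 0.36 and an FDR of 0.0966, 0.00195, 2.97e-05 and 0.000556, also under 1.5 fold.

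Picalm, a clathrin assembly protein that binds phosphoinositides, had a log2 signal of 9.87 to 10.33. WT at 4 months was highest (10.22 ± 0.0986, n = 3) and rTg4510 at 8 months lowest (9.91 ± 0.0337, n = 3), and the 6 groups between them had means of at most 10.09. Every group overlapped the next in order. The log2 change was -0.08, -0.20, -0.08 and -0.14 at 2, 4, 6 and 8 months with an FDR of 0.538, 0.028, 0.301 and 0.111. At 4 months the FDR ran from 1.27e-05 to 0.169 over the alternatives. It was 0.169 with only the groups compared, 0.0609 with moderated variances, 0.0944 and 0.0922 without rTg4510 replicate 1 or 2 of 4 months, and 0.151 without WT replicate 1 of that age. Chordc1 (r = 0.81), a heat shock protein partner, Zfp638 (r = 0.805) and Gm12183 (r = 0.792) were most alike. Picalm and Sorl1 correlated with r = -0.326 over the libraries, while their deviations from the group means correlated with r = 0.715, the highest among all pairs of the 10 genes.

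Of 32 partners in clathrin-mediated endocytosis, 0, 0, 1 and 0 were called higher and 1, 1, 2 and 1 lower at 2, 4, 6 and 8 months, and their median log2 change was 0.00025, -0.0538, -0.0117 and 0.0435. The list's shares called in either direction, 3.12%, 3.12%, 9.38% and 3.12%, stood beside 1.98%, 13.8%, 19.8% and 15.9% of all genes, whose medians were 0.0143, -0.037, -0.035 and -0.014. Epn2, an epsin that binds clathrin and ubiquitin, fell at all 4 ages, by 0.62, 0.98, 1.26 and 1.14 log2 units (FDR of 0.00144, 6.94e-06, 1.51e-08 and 7.25e-07). Cltb, a clathrin light chain, rose by 0.61 at 6 months (1.52-fold). Dnm3, a dynamin, fell by 0.82 at 6 months, with a group near the lowest value of its libraries. Bin2, the relative of Bin1 in blood cells, had log2 changes of -0.28, -0.53 and -0.41 at 4, 6 and 8 months (FDR of 0.0271, 1.3e-05 and 0.00133), under 1.5 fold, and Bin3 and Snap91 had an FDR of 0.063 or more at every age. Amph was not analysed here.

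Abi3 belongs to the ABI adaptors that act with the WAVE complex on branched actin. By age, from 2 to 8 months, its log2 signal in WT lay within 9.38 to 9.65, 9.52 to 9.60, 9.39 to 9.62 and 9.15 to 9.51. In rTg4510 it lay within 9.33 to 9.50, 9.09 to 9.25, 8.98 to 9.28 and 8.91 to 9.0 at these ages. The group means were 9.57 ± 0.127, 9.56 ± 0.0405, 9.49 ± 0.0979 and 9.29 ± 0.194 in WT and 9.42 ± 0.0759, 9.19 ± 0.0872, 9.08 ± 0.134 and 8.97 ± 0.0488 in rTg4510 (SD, n = 4, 3, 4 and 3), and each group overlapped the next in order of level. The log2 change was -0.15 ± 0.0786 (SE, FDR = 0.373) at 2 months, where the genotypes overlapped, and -0.38 ± 0.0907 (FDR = 0.00389), -0.41 ± 0.0786 (FDR = 0.000345) and -0.32 ± 0.0907 (FDR = 0.0118) at 4, 6 and 8 months, where they did not. Under quantile normalization the change at 6 months was 1.52-fold and passed both thresholds (FDR = 2.79e-06, with 6.4e-06 to 0.148 under the other alternatives). With all 32 libraries the FDR was 0.216, 0.148 and 0.262 at 4, 6 and 8 months. At 8 months it was 0.178 with only the 2 groups of that age and 0.0986 without WT replicate 3 of 8 months (log2 change -0.21), and the lowest over the alternatives was 4.97e-05 at 4 months and 0.000156 at 8 months. Ptgs1 (r = 0.955), the enzyme cyclooxygenase-1, F11r (r = 0.949), a junctional adhesion molecule, and Golm1 (r = 0.943) ran most like Abi3.

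Abi3 also varied with the microglia markers as a whole. Its deviations from the group means followed those of the summed level of the 8 microglia markers with Pearson r = 0.817 and Spearman rho = 0.792 over the 28 libraries, and with r = 0.725 without WT replicate 1 of 2 months and WT replicate 3 of 8 months. The part of the microglia share in the Abi3 values was not tested. Of 11 other genes of the WAVE complex, 0, 0, 1 and 0 were called higher and 0, 0, 1 and 0 lower at 2, 4, 6 and 8 months, with a median log2 change of 0.0406, 0.0837, -0.0535 and 0.0583. At 6 months 18.2% of the list was called, against 19.8% of all genes, and 0.0% at the other ages, against 1.98%, 13.8% and 15.9%, and the median over all genes was 0.0143, -0.037, -0.035 and -0.014. Brk1, the smallest subunit, rose by 0.59 at 6 months (1.5-fold), and Nckap1 fell by 0.80 with overlapping genotypes. The relatives Abi1 and Abi2 had log2 changes of 0.28 and 0.43 at 6 months (FDR of 0.00137 and 0.00023) and 0.37 and 0.41 at 8 months (FDR of 0.000452 and 0.00189), opposite in sign to Abi3.

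Epha1 encodes a receptor tyrosine kinase for ephrins. Its log2 signal in WT was 4.54, 4.28, 4.59 and 4.50 at 2 months, 4.89, 4.28 and 4.89 at 4 months, 4.28, 4.48, 4.59 and 4.91 at 6 months and 4.33, 4.17 and 4.25 at 8 months. In rTg4510 it was 4.75, 4.45, 4.45 and 4.43 at 2 months, 3.81, 4.06 and 3.96 at 4 months, 4.33, 4.12, 4.41 and 4.26 at 6 months and 3.95, 4.25 and 4.50 at 8 months. The genotypes overlapped at 2, 6 and 8 months. At 4 months they did not, and the log2 change was -0.75 ± 0.165 (SE, 1.68-fold lower, FDR = 0.00185), with -0.28 ± 0.143 (FDR = 0.137) at 6 months and -0.02 ± 0.165 (FDR = 0.957) at 8 months. The call at 4 months was lost when only the 2 groups of that age were fitted (FDR = 0.118), and under the other alternatives, single libraries left out included, the FDR ran from 0.000163 to 0.0158.

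The genotype difference of Epha1 fell by 0.79 ± 0.218 log2 units from 2 to 4 months (limma FDR = 0.0309). That call was lost without rTg4510 replicate 1 of 2 months (FDR = 0.063), rTg4510 replicate 1 or 4 of 4 months (0.072 and 0.0595), WT replicate 2 of 2 months (0.0585) or WT replicate 1 or 4 of 4 months (0.0823 and 0.103). It was also lost with the replicate block (0.0819), with only the groups compared (0.0694) and with quantile normalization (0.0597), and under the other alternatives the FDR ran from 0.00484 to 0.0462. Where the call was lost, the fold was 1.61 to 1.74. Group means ran from WT at 4 and 6 months (4.69 and 4.56), rTg4510 at 2 months (4.52) and WT at 2 months (4.48) to rTg4510 at 6 months (4.28), WT at 8 months (4.25), rTg4510 at 8 months (4.23) and rTg4510 at 4 months (3.94), and all neighbours overlapped. Epn1 (r = 0.765), an epsin, was most alike, followed by Gm9243 (r = 0.75).

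Epha1 varied with neutrophil markers more than with those of other cell types. Its deviations from the group means followed those of the 5 summed neutrophil markers with Pearson r = 0.636 and Spearman rho = 0.627, and with r = 0.599 without rTg4510 replicate 4 of 2 months and rTg4510 replicate 1 of 8 months. The summed neutrophil level was 8.91 ± 0.327, 9.03 ± 0.527, 9.12 ± 0.466 and 9.39 ± 0.123 in WT and 8.96 ± 0.749, 8.11 ± 0.44, 7.13 ± 0.304 and 7.82 ± 0.582 in rTg4510 at 2, 4, 6 and 8 months (SD, n = 4, 3, 4 and 3). Of these markers 0, 0, 4 and 3 were called lower and 0 higher, S100a8 was the most abundant with a log2 signal of 5.21 to 8.54, and the defining marker Ly6g was within 3 counts of the lowest value in 16 libraries. Their part in the Epha1 values was not tested.

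Markers of other cell types differed between genotypes in part. The called ones were 1 neuron marker lower at 6 months, 1 astrocyte marker higher and 2 lower at 6 months and 1 higher and 3 lower at 8 months, and 1 border macrophage marker lower at 6 months. Of the 2 markers of oligodendrocyte precursors 1 was called higher at 4, 6 and 8 months and 1 lower at 6 months. Of 5 endothelial markers 1 was called higher and 1, 2 and 1 lower at 4, 6 and 8 months, and of 5 lymphocyte markers 1 was called lower at 4 months. Of 2 monocyte markers Ccr2 was called lower at 4 months and Ly6c2 at 6 months, where the log2 change of Ccr2 was 0.21 (limma FDR = 0.546). At 2 months 0 markers of any of the 10 cell types were called. The deviations of Pld3 from the group means ran against those of the astrocyte markers (r = -0.576) and the neuron markers (r = -0.514). The part of other cell types in the values of the 10 risk genes was not tested.

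Of 12 other Eph receptors and ephrins in the table, 0, 0, 1 and 0 were called higher and 0, 3, 5 and 4 lower at 2, 4, 6 and 8 months, with a median log2 change of -0.459, -0.642, -0.845 and -1.16. Of the list 0.0%, 25%, 50% and 33.3% were called in either direction, against 1.98%, 13.8%, 19.8% and 15.9% of all genes, and the median log2 change of all genes was 0.0143, -0.037, -0.035 and -0.014. Epha2 fell by 1.33, 1.82 and 1.90 log2 units at 4, 6 and 8 months (FDR of 6.43e-05, 8.17e-08 and 5.06e-07), and Ephb3 by 0.82, 1.35 and 1.31. Ephb4 fell by 2.05 at 6 months (4.15-fold), with a signal of 1.78 to 3.35 in rTg4510. The lowest value of a kept library was 1.23 to 1.92, so part of these Ephb4 values lay close to it. At 2, 4 and 8 months Ephb4 was not called (log2 changes of -0.62, -1.13 and -0.44, limma FDR of 0.545, 0.111 and 0.571). Efna5, a ligand, rose by 1.15 at 6 months with overlapping genotypes. The other called genes, named after their values were seen, were the ligands Efnb2 (log2 changes of -1.39, -0.91 and -1.44 at 4, 6 and 8 months) and Efnb1 (-0.81 and -0.92 at 6 and 8 months).

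Of 29 genes at other Alzheimer risk loci, 1, 3, 3 and 3 were called higher and 0, 0, 1 and 0 lower at 2, 4, 6 and 8 months, and the median log2 change was 0.0184, -0.129, -0.0592 and -0.00167 (0.0143, -0.037, -0.035 and -0.014 over all genes). In either direction 3.45%, 10.3%, 13.8% and 10.3% were called, beside 1.98%, 13.8%, 19.8% and 15.9% of all genes. The largest increase at 6 months was that of Apoe (3.60 log2 units), followed by Scimp (1.28), an adaptor of Toll-like receptors, and Trem2 (0.65). At 8 months Trem2 missed the fold threshold (1.49-fold), and Echdc3, named after its values were seen, was called (log2 change 1.16). Cr2, a complement receptor, fell by 1.55 at 6 months.

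**Figure D3:**
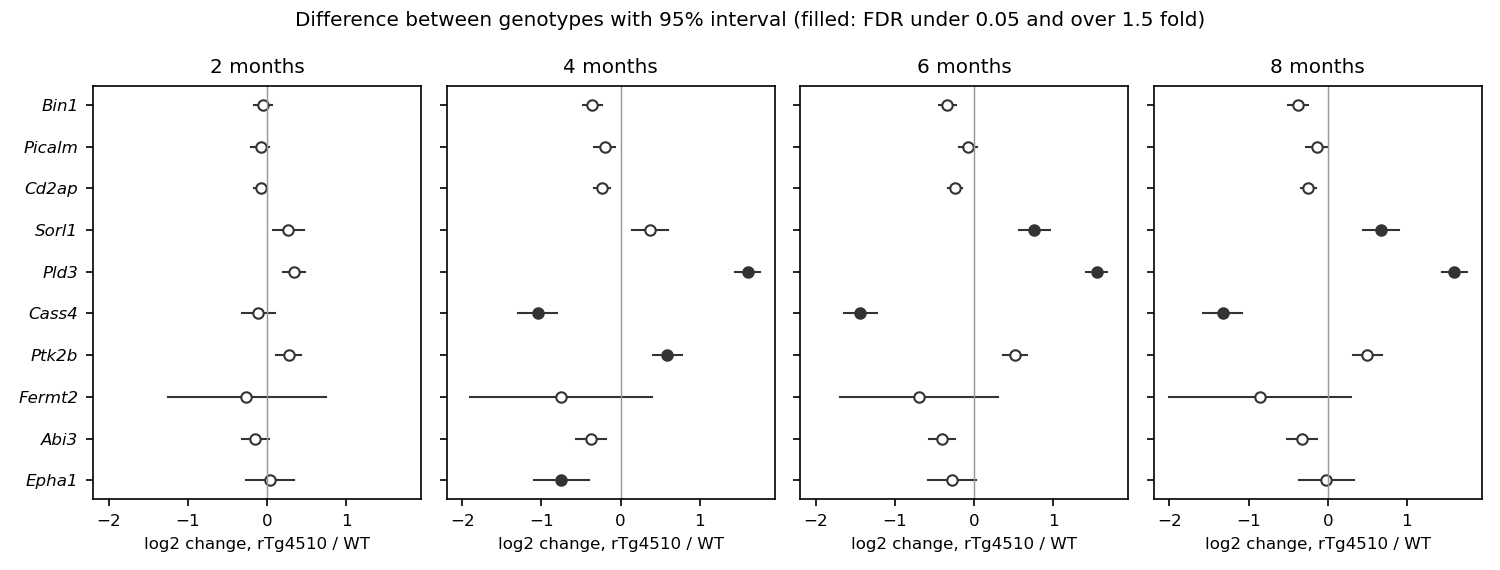
Log2 change of rTg4510 against WT (horizontal axes) with its 95% interval for the 10 genes at 2, 4, 6 and 8 months, with filled circles where FDR was under 0.05 and the change over 1.5 fold. Pld3 lies at 1.61, 1.55 and 1.60 and Cass4 at -1.04, -1.44 and -1.32 at 4, 6 and 8 months, and the intervals of Fermt2 span 0 at each age.

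Between ages, the change in genotype difference from 2 to 4 months was called for 3 of the 10 genes. These were Pld3, Cass4 and Epha1, where 4.66% of all genes were called. From 4 to 6 months 0 of the 10 were called by limma (0.156% of all genes). At an unadjusted p under 0.05 there were 3, against 1514 of all 18588 genes. From 6 to 8 months 0 were called (0.0% of all genes), with 0 at an unadjusted p under 0.05 (841 of all genes). Within WT 0 of the 10 were called between 2 and 8 months (1.27% of all genes), with 5 at an unadjusted p under 0.05 (3561 of all genes). Within rTg4510 3 were called (Sorl1, Pld3 and Cass4, against 10.5% of all genes). With moderated variances the counts called among the 10 did not differ. Over the 28 libraries Sorl1 and Cass4 correlated with r = -0.93, and Bin1 and Cass4 with r = 0.926, but their deviations from the group means correlated with r = -0.222 and 0.341, so the genes shared group differences more than differences within groups.

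On GRCm38 the 10 genes lie on 8 chromosomes in GENCODE annotation and are all protein-coding. Exons of 5 of them share bases with exons of a gene on the opposite strand, and whether counting used the strand is not given in the sources used here, so reads of such pairs cannot be told apart. Abi3 (chr11:95830074-95842476) shares 41.1% of its exonic bases with Phospho1, 5.63% with Gngt2 and 70.1% with annotated transcripts of Zfp652. Phospho1 had log2 changes of -0.75 at 6 months and -0.59 at 8 months, both called, while Zfp652 had -0.22 and -0.17 and Gngt2 0.42 and 0.47, not called. Cass4 (chr2:172393794-172433757) shares 21.2% with the antisense gene Gm14455, which was not analysed here, Epha1 (chr6:42358487-42373268) 6.01% with Zyx, Bin1 (chr18:32377230-32435737) 6.22% with A830052D11Rik and Sorl1 (chr9:41964720-42124297) 1.63% with Gm16214. Zyx had log2 changes of 0.07, 0.07, 0.17 and 0.21 and was not called at any age. Pld3 (chr7:27532000-27553218) and the other 4 genes share no exonic base with another gene.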

How the data were processed

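Microglia RNA of 2 genotypes at 4 ages was sequenced as 32 libraries. The deposited table holds 1 log2 signal per gene and library. Each signal is the authors' robust regression over the exons of a gene. Runs of the same library had been pooled for it, and exons with few reads in most samples did not enter. Libraries share a common median, which was 5.63 on the log2 scale. The genome build GRCm38 comes from the submitters' processing notes, and the aligner and annotation are not given in the sources used here.

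Entrez numbers were matched to RefSeq symbols (17828 of 18588 genes, 95.9%). A linear model with 8 group means was fitted to every gene over 28 libraries with limma 3.58.1 (R 4.3.3, data.table, version 1.17.8), with unmoderated variances, 20 residual degrees of freedom and Benjamini-Hochberg FDR within each contrast. Genes were called where the FDR was under 0.05 and the fold exceeded 1.5, and no gene was filtered out. The contrasts were genotype at each age, the difference of these between neighbouring ages, and 8 against 2 months within each genotype. Contrasts that share an age share its libraries. Descriptions and plots used Python 3.11.15 with numpy 2.4.6, pandas 2.3.3 and matplotlib 3.10.9.

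Named were the 10 members, genes from the 3 with a symbol and above the median signal that had the highest Pearson r to each, close paralogs, and from each partner list up to 3 increases and 3 decreases called at 6 months. The members and lists were chosen with earlier results of these data known. Alternatives were all 32 libraries, only the groups compared, moderated variances, quantile normalization, centring on the 5000 highest genes, leaving out the lowest 25% of genes by mean signal, a replicate block, and each library left out. Libraries of the same replicate number were correlated to check pairing, and r was 0.0649 to 0.167 at 2 months (-0.194 to 0.0816 for unlike numbers), -0.0999 to 0.124 at 4 (-0.0709 to 0.154), 0.131 to 0.153 at 6 (-0.127 to 0.0913) and 0.15 to 0.291 at 8 (-0.259 to -0.0281), but what the number marks is not given in the sources used here. Whether reads were counted by strand is not given there either. Supplementary tables of the study were not used here.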

Additional observations from a re-analysis of the deposited data

Results flagged for a closer look

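In groups of 4 libraries, the gap of the highest or lowest library to its nearest neighbour, divided by the range of the group, exceeded Dixon's 95% critical value in 2 of 40 groups. Chance gives about 1 in 20 groups. Replicate 1 of rTg4510 at 2 months stood above the other 3 libraries for Epha1 (4.75 against 4.43 to 4.45), with a ratio of 0.938. Replicate 1 of WT at 2 months stood below the other 3 for Abi3 (9.38 against 9.61 to 9.65), with a ratio of 0.853.

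By limma's test of the difference itself, the genotype difference changed from 2 to 4 months for 3 genes with an FDR under 0.05 and over 1.5 fold. The log2 value was 1.26 for Pld3 (FDR = 8.51e-08), -0.93 for Cass4 (FDR = 0.000643) and -0.79 for Epha1 (FDR = 0.0309). For Bin1 it was -0.31 (FDR = 0.0179), under 1.5 fold, with an FDR of 0.733 when all 32 libraries were used. For Epha1 the call was lost without replicate 1 of rTg4510 at 2 months (log2 value -0.71, FDR = 0.063), the library that stood apart, and without any 1 of 5 other libraries (FDR of 0.0585 to 0.103). It was also lost with the replicate block (0.0819), with only the groups compared (0.0694) and with quantile normalization (0.0597). Under the other alternatives the FDR ran from 0.00484 to 0.0462. Where the call was lost, the fold was 1.61 to 1.74.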

How the results depend on the processing

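Of 176 counts under the alternatives other than leaving out 1 library, 147 stayed within 1.5 times the reported count and 29 moved further, 16 of them with FDR alone. Of 415 log2 changes 390 kept their direction and side of the thresholds. With FDR alone 17 passed because the fold threshold was dropped, their log2 change being the same. Under quantile normalization 1 (Abi3 at 6 months) newly passed both thresholds. Of the others 6 no longer passed and 1 changed sign. Of 33 log2 changes with a reported FDR under 0.05, 15 had an FDR of 0.05 or more under an alternative or without 1 library, also where the fold was below the threshold. Without 1 library 597 of 616 counts and 1468 of 1484 log2 changes were kept. The causes of the changes below were not tested.

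With FDR alone, chosen after seeing the data, 2, 9, 7 and 7 of the 10 genes were called at 2, 4, 6 and 8 months, 1 within WT and 7 within rTg4510 between 2 and 8 months. By that rule 885, 3555 and 2967 genes were higher at 2, 6 and 8 months and 236, 1692, 2777 and 1817 lower at 2, 4, 6 and 8 months. The rule called 1363 genes for the genotype difference at 4 against 2 months, 783 within WT and 4025 within rTg4510. With all 32 libraries 135 genes were higher and 30 lower at 2 months, 6 were called for the difference at 6 against 4 months, and 43 within WT. With only the groups compared 48 genes were lower at 2 months, 1166 higher and 395 lower at 4 months and 474 lower at 8 months, 5 were called for the difference at 6 against 4 months, and 0 by limma within WT (236 in the fit of all groups, 3561 there at an unadjusted p under 0.05). The difference at 6 against 4 months gave 13 genes with quantile normalization and 7 with the filter on low signals. Epha1 and Fermt2 were not tested with that filter.

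With the replicate block, which treats libraries of 1 number as paired, 21 of 22 counts and 52 of 53 log2 changes were kept. The difference at 6 against 4 months gave 11 genes, and that of Epha1 at 4 against 2 months was -0.79 with an FDR of 0.0819. The latter had an FDR of 0.0694 with only the groups compared and 0.0597 with quantile normalization.

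Epha1 at 8 months was 0.03 under quantile normalization. With 1 library left out, log2 changes ran from -0.03 to 0.08 for Epha1 at 2 months, -0.53 to 0.07 for Fermt2 at 2 months, -0.15 to 0.13 for Epha1 at 8 months, and -0.03 to 0.18 for the Sorl1 difference at 4 against 2 months. Genes lower at 2 months numbered 48 to 89 (48 without WT replicate 2 of 2 months), those of the difference at 6 against 4 months 6 to 33 (15 libraries moved this count) and those within WT 95 to 334 (139 without WT replicate 3 of 2 months, 95 and 143 without WT replicate 1 or 2 of 8 months).

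The median of all genes moved by at most 0.096 under the scalings. The share of called genes that were higher went from 79.6% to 68.3% at 2 months with quantile normalization. With centring on the 5000 highest genes it went from 57.0% to 45.4% at 6 months, from 24.1% to 12.9% for the difference at 6 against 4 months and from 41.9% to 68.8% within WT. Groups of 3 or 4 libraries and the absence of read totals per library limit the precision.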

Other observations

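The 4 libraries that entered no comparison stood apart from the 28 others for Cd2ap and, in part, for Abi3 and Pld3. The log2 signal of Cd2ap was 7.89 and 8.15 in replicate 3 of WT and rTg4510 at 4 months and 7.85 and 7.73 in replicate 4 at 8 months, all below the lowest of the 28 libraries (8.25). That of Abi3 was 10.31 and 10.09 at 4 months and 9.87 and 9.48 at 8 months, and 3 of these lay above the highest of the 28 (9.65). In the same order Pld3 was at 8.47, 9.36, 8.21 and 9.90, and Cass4 at 6.83, 5.78, 6.89 and 5.65, with rTg4510 above WT for Pld3 and below it for Cass4 at both ages. Both rTg4510 values of Pld3 lay above the highest of the 28 (9.30). For Bin1, Picalm, Sorl1, Cass4, Ptk2b and Epha1 1 of the 4 lay outside the range of the 28, and for Fermt2 0 did.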
